A study of Mus musculus with 10 samples.

Results

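Genes of bile duct and epithelial progenitor cells were followed through 10 spatial transcriptomic sections of 7 mouse livers and liver tumours. They were taken by symbol from the 31053 genes counted in every section: *Krt19*, *Krt7*, *Krt23*, *Sox9*, *Spp1*, *Epcam*, *Cd24a*, *Cldn4* and *Cldn7*. All 9 of 31053 were found once each. The sections were placed on Visium slides, on which barcoded spots capture the polyadenylated RNA of the few cells above them and each captured molecule is counted as a unique molecular identifier (UMI). NEJ146 was sampled as 4 adjacent sections, labelled A to D and here called sections 1 to 4, and NEJ634, NEJ638, NEJ654, NEJ677, NEJ687 and NEJ723 as 1 section each.

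The model is ABC-Myc, a C57BL/6J mouse that carries an albumin promoter-driven Cre (Alb-Cre) and a human MYC transgene behind a floxed STOP cassette (CAG-Myc), so that MYC is switched on in cells of the hepatocyte lineage. The human transgene is not a counted gene here. The labels call all 7 tissues hepatoblastoma, a liver tumour of early childhood, while one protocol text names both tumour and normal liver. The study's text treats NEJ146, NEJ634, NEJ687 and NEJ723 as ABC-Myc tumours, which leaves NEJ638, NEJ654 and NEJ677, by exclusion, as its healthy livers. Control littermates of the study lack one or both of the alleles, so that MYC is not switched on in them, and which alleles these 3 mice carried is not given. The labels do not say which sections are normal liver. The ages of the mice are not given for these sections. The counts separated the tissues against their label: 9 hepatoblast genes (*Afp*, *Dlk1*, *Gpc3* and others) summed to 8271 ± 286 CPM (a gene's UMIs scaled to 1e+06 UMIs of tissue spots; SD, n = 4 sections) in NEJ146, 7673 CPM in NEJ634, 13784 CPM in NEJ687 and 4045 CPM in NEJ723. The same sum was 136 CPM in NEJ638, 36.7 CPM in NEJ654 and 18.0 CPM in NEJ677, in which *Sall4* was at 0 in NEJ654 and NEJ677. Since every group is 1 tissue, values are given tissue by tissue and no test between tissues was made. Errors are the SD over the 4 NEJ146 sections, which are adjacent slices of 1 tissue, or exact 95% Poisson intervals, which cover counting error only.

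In the adult liver, cholangiocytes line the bile ducts that run through the portal tracts beside stroma and vessels. They stand apart from hepatocytes by simple keratins such as *Krt7* and *Krt19*, by the transcription factor *Sox9*, which acts downstream of Notch signalling in duct formation, and by the secreted matrix protein osteopontin (*Spp1*). *Epcam*, a homophilic adhesion protein, the tight junction claudins *Cldn4* and *Cldn7* and the small surface glycoprotein *Cd24a* are shared by duct cells and by the bipotent progenitors from which both liver lineages arise, and they recur in liver tumours with progenitor or biliary features. On the mm10 assembly (GRCm38), all 9 are protein-coding genes, at chr11:100140810-100148665 (*Krt19*), chr15:101411043-101430313 (*Krt7*), chr11:99477974-99493137 (*Krt23*), chr11:112782224-112787760 (*Sox9*), chr5:104435118-104441050 (*Spp1*), chr17:87635979-87651129 (*Epcam*), chr10:43578284-43584265 (*Cd24a*), chr5:134945119-134946934 (*Cldn4*) and chr11:69964779-69967885 (*Cldn7*). Counts come from the 3′ ends of the transcripts, so that they are levels of the gene and not of an exon.

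*Cldn4*, *Cldn7*, *Epcam* and *Krt7* were the members highest together in NEJ634 and NEJ723, so the 250 bases before their transcription starts are shown, as listed by RefSeq on GRCm38.p6. The listed start of *Krt7* lies within the gene span given above. Promoters of 6 of the 9 members were listed, and those of *Krt19*, *Sox9* and *Cd24a* were not. Capitals mark CACCTG, the E-box bound by repressors of epithelial genes of the SNAI and ZEB families, and TGACTCA, the AP-1 motif, each on either strand.
Cldn4, chr5:134946935-134947184, minus strand: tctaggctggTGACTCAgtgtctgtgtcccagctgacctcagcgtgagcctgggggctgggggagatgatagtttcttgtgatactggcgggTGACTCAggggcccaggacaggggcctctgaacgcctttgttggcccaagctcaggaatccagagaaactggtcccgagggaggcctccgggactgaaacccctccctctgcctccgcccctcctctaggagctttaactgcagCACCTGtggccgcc
Cldn7, chr11:69964529-69964778, plus strand: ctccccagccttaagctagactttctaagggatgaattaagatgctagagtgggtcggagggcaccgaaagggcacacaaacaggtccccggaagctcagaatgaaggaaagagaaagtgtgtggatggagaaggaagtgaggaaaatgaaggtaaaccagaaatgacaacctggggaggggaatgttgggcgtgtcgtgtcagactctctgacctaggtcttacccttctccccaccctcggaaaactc
Epcam, chr17:87635729-87635978, plus strand: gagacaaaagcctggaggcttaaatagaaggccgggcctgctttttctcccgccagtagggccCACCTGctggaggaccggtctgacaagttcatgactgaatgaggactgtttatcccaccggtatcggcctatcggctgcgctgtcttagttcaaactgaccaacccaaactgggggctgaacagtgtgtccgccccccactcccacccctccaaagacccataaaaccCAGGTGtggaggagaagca
Krt7, chr15:101412153-101412402, plus strand: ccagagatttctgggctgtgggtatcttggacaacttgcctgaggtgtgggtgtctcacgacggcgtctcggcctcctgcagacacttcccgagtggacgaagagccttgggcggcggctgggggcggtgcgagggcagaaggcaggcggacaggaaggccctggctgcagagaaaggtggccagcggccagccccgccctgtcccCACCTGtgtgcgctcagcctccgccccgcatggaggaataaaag
*Epcam* held 2 copies of CACCTG, and *Krt7* and *Cldn4* 1 each, against 17.2% of all 32851 listed windows of this length with at least 1. *Cldn4* held 2 copies of TGACTCA, found in 4.46% of all windows, and none of the other 3 held it. The SP1-type motif GGGCGG, searched on both strands, occurred 4 times before *Krt7* and once each before *Epcam* and *Cldn4*, against 32.7% of all windows. The window shown for *Cldn7*, 1 of 2 listed for it, held none of the 3 motifs. *Krt23* and *Spp1*, the other listed members, each held 1 copy of CACCTG and neither of the other motifs in the window searched. CACCTG was thus not particular to the genes shown. No match of one motif overlapped a match of another in these windows, and a match describes the sequence and no binding.

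Sections held 61627315 to 117556249 UMIs. Spots over tissue were taken from the deposited calls, or as spots of at least 8000 UMIs in NEJ146, which has no call among the files used here, and numbered 4171 to 4878 in NEJ146 and 1890 to 4458 in the others. Their median depth was 16887 to 21921 UMIs in NEJ146 and 12133.5 to 28926.5 UMIs in the others. Spots outside the deposited calls had median depths of 6659.5 to 11895 UMIs by section. The cut of 8000 UMIs in NEJ146 may thus keep spots that a call would leave out, so that its values are not strictly like for like. NEJ146 was prepared and processed apart from the other tissues, with mitochondrial genes at 6.78 to 7.22% of UMIs against 2.46 to 3.86%, so that preparation and tissue cannot be told apart for it. In bulk levels of a section, fewer cells of a kind and less RNA per cell cannot be told apart.

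The levels of most members differed more between tissues than between adjacent sections. Of the 9 members, 8 reached 5 CPM in their highest tissue, all but *Sox9*, and each of the 8 ranged at least 4-fold over the 7 tissues on log2(CPM + 1). Among all 11173 genes that reached 5 CPM, 26.1% ranged that far. In *Krt19*, *Spp1* and *Cd24a* the highest tissue stood at least 2-fold above the next, against 2.69% of all genes. The filter asks for a high tissue, so these counts describe the members and no more.

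*Krt19*, an intermediate filament protein of simple duct epithelium, was measured at 43.2 CPM in NEJ634, at 6.51, 8.22, 6.51 and 7.32 CPM in the 4 sections of NEJ146, at 6.07 CPM in NEJ723, 5.31 CPM in NEJ638, 2.05 CPM in NEJ687, 1.84 CPM in NEJ654 and 1.27 CPM in NEJ677. NEJ634 was therefore 6.06 times above the NEJ146 mean of 7.14 ± 0.815 CPM (SD, n = 4), and the intervals of NEJ146 (mean ± SD), NEJ723 and NEJ638 overlapped from neighbour to neighbour in this order. *Krt7*, its partner keratin in ducts, was 41.6 CPM in NEJ634 and 23.1 CPM in NEJ723, 5.18 ± 1.16 CPM in NEJ146, 2.93 CPM in NEJ638, and 0.923, 0.80 and 0.738 CPM in NEJ687, NEJ654 and NEJ677. The keratins thus separated in NEJ723, which held *Krt7* at 23.1 CPM (95% interval 21.7 to 24.5) but *Krt19* at the level of NEJ638. The last 3 tissues did not differ in *Krt7* beyond counting error.

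*Krt23*, a keratin of duct cells that injured hepatocytes also make, ran the other way. It was highest at 8.26 CPM in NEJ638, 6.52 CPM in NEJ677 and 3.04 CPM in NEJ654, against 1.82 CPM in NEJ634, 1.62 ± 0.25 CPM in NEJ146, 1.05 CPM in NEJ723 and 0.975 CPM in NEJ687. The 3 tissues low in hepatoblast genes lay above the 4 others without overlap of their intervals, and the 4 others overlapped from neighbour to neighbour. *Sox9* was low in all 7 tissues. It stood at 4.74 CPM in NEJ634, 2.85 CPM in NEJ654, 2.32 ± 0.47 CPM in NEJ146, 2.04 CPM in NEJ677, 1.86 CPM in NEJ638, 1.05 CPM in NEJ723 and 0.836 CPM in NEJ687, and the intervals from NEJ654 to NEJ638 overlapped from neighbour to neighbour.

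*Spp1*, the secreted ligand of integrins and CD44, was 351 CPM in NEJ634, 121 CPM in NEJ638, 108, 133, 110 and 88.2 CPM in the sections of NEJ146, 73.4 CPM in NEJ677, 68.1 CPM in NEJ687, 66.2 CPM in NEJ654 and 31.5 CPM in NEJ723. NEJ723, which was high in *Krt7*, *Epcam* and both claudins, was thus the lowest tissue for *Spp1*, 11.1 times below NEJ634.

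The adhesion and junction genes shared their 3 highest tissues. *Epcam* was 58.8 CPM in NEJ723 and 54.8 CPM in NEJ634, whose intervals overlapped, then 5.93, 10.3, 7.74 and 5.14 CPM in the sections of NEJ146, 5.08 CPM in NEJ638, 2.66 CPM in NEJ654, 2.09 CPM in NEJ687 and 1.93 CPM in NEJ677. *Cldn7* was 300.2 CPM in NEJ723, 177 CPM in NEJ634, 10.2, 26.0, 19.9 and 8.85 CPM in NEJ146, 3.66 CPM in NEJ687, 2.87 CPM in NEJ638, 1.18 CPM in NEJ654 and 0.866 CPM in NEJ677. *Cldn4* was 73.1 CPM in NEJ723, 40.9 CPM in NEJ634, 4.09, 11.4, 6.79 and 4.34 CPM in NEJ146 and 0.118 to 0.547 CPM in the other 4 tissues, where it rested on 5 to 28 UMIs. NEJ634 and NEJ723 stood above every other section for all 3 genes, and NEJ687 lay within the range of the tissues low in hepatoblast genes for *Epcam* and *Cldn4* and just above it for *Cldn7*. Adjacent sections differed for these genes more than for others: the highest section of NEJ146 was 2.94 times the lowest for *Cldn7*, 2.79 times for *Cldn4*, 2.0 times for *Epcam* and 1.26 times for *Krt19*. The SD over the 4 sections on log2(CPM + 1) was 0.70 for *Cldn7* against a median of 0.09 over 12325 genes.

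*Cd24a*, a surface glycoprotein of progenitors that red cell precursors, neutrophils and B cells also carry, had a pattern of its own. It was 151 CPM in NEJ687, 58.4 CPM in NEJ723, 47.2, 53.8, 47.6 and 42.6 CPM in NEJ146 and 47.5 CPM in NEJ634, against 5.43 CPM in NEJ638, 2.64 CPM in NEJ654 and 2.47 CPM in NEJ677. All 7 sections of the 4 tissues high in hepatoblast genes lay above the 3 others, and NEJ687, the lowest tissue for *Krt23* and *Sox9*, was the highest for *Cd24a*.

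**Figure D1:**
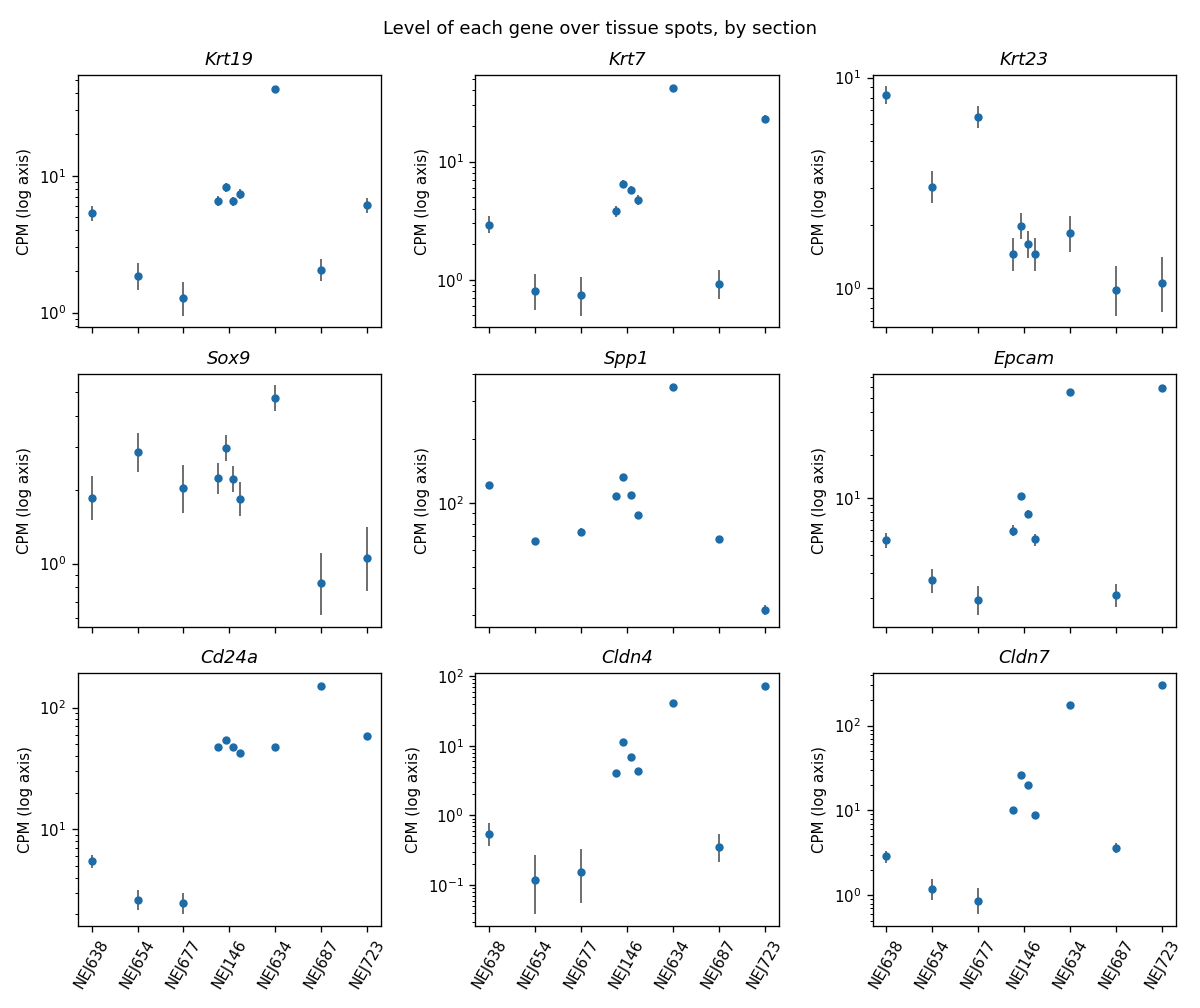
Level of each member in CPM over tissue spots (log axis) in the 10 sections, grouped by tissue on the horizontal axis. Points are sections and bars exact 95% Poisson intervals, and NEJ634 is the highest tissue for *Krt19* (43.2 CPM) while NEJ687 is the highest for *Cd24a* (151 CPM) and NEJ638 for *Krt23* (8.26 CPM).

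The share of spots with a UMI was highest in the same tissues as the level, with some neighbours in the other order. *Krt19* was seen in 52.3% of tissue spots in NEJ634, 6.40 to 9.81% in NEJ146, 8.85% in NEJ723, 4.96% in NEJ638, 2.82% in NEJ654, 1.73% in NEJ687 and 1.59% in NEJ677. Thinned to 5000 UMIs a spot, which left out 3 to 623 shallower spots outside NEJ146, the share was 18.2% in NEJ634, 2.14 to 3.12% in NEJ146, 2.67% in NEJ723 and 2.05% in NEJ638. *Cldn7* was seen in 90.5% of spots of NEJ634 and 89.0% of NEJ723, or 53.3% and 77.1% after thinning, against 3.56% of spots of NEJ638 and 1.46% after thinning. *Cldn7* was thus seen in most spots of both tissues.

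Whether the members lay in the same spots was measured with a co-occurrence ratio. For a pair of genes, the products of both UMI counts were summed over tissue spots and divided by the sum expected if each gene took one fixed share of every spot's UMIs. A ratio of 1 is what spot depth alone gives. A gene spread evenly over all spots has a ratio near 1 with every gene, so that a low ratio can come from spread as well as from separate places. A pair was evaluated where the expected sum was at least 5 (for genes that are no members, also with at least 50 UMIs). Of the 36 pairs, 33 of 36 evaluated reached a ratio of 2 in NEJ146, 22 of 29 in NEJ638, 13 of 15 in NEJ654, 7 of 12 in NEJ677 and 9 of 17 in NEJ687, against 6 of 36 in NEJ634 and 3 of 35 in NEJ723. The median ratio over evaluated pairs was 4.94, 6.59, 3.88, 6.25 and 8.53 in the first 5 tissues, in that order, and 1.47 in NEJ634 and 1.08 in NEJ723. The evaluated pairs were not the same set in every tissue. *Spp1* was in 8 of the 15 pairs of NEJ654, 8 of the 12 of NEJ677 and 8 of the 17 of NEJ687. *Cd24a* was also in 8 pairs of NEJ687, and every pair that reached 2 in NEJ677 was one of *Spp1*. The counts and medians of these 3 tissues thus lean on *Spp1* and are not like for like with the others. In NEJ634 and NEJ723 *Cldn7* had ratios with itself of 1.44 and 1.03 and *Epcam* of 2.08 and 1.35. In NEJ723 those of *Krt7*, *Cd24a* and *Cldn4* were 1.78, 1.36 and 1.49. Genes that each have a ratio below 2 with themselves can hardly reach 2 as a pair, even where all their spots are shared. The counts and medians of NEJ634 and NEJ723 are thus not like for like with the others either. Whether spread or separate places accounts for the low ratios there was not tested. The counts depended on the measure. With spots that held both genes, set over the number expected, 21 pairs reached 2 in NEJ146, 15 in NEJ638, 4 in NEJ654, 3 in NEJ687, 1 in NEJ677 and 0 in NEJ634 and NEJ723. This measure cannot reach 2 for a gene seen in most spots, such as *Krt19* in NEJ634 and *Cldn7* in NEJ634 and NEJ723. For pairs of such genes the result was fixed beforehand, and the 0 there says nothing about shared spots. Without the 1% of spots richest in members, 7 pairs reached a ratio of 2 in NEJ654, 3 in NEJ634 and 0 in NEJ723. These spots were picked by the summed share of the members, the same counts that enter the ratio. A fall is therefore built into this setting, here and below, and only its size describes how few spots carry a ratio. The share over all pairs of genes was not computed, and the shares of all genes that reached 2 with *Krt19* or *Epcam* are given for each tissue.

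In NEJ638 *Krt19* and *Krt7* had a ratio of 26.1 and shared 27 spots, where 7.06 were expected from spot depth and the number of spots with each gene. The ratio of *Krt19* was 17.9 with *Cd24a*, 16.1 with *Epcam*, 16 with *Cldn7*, 7.56 with *Spp1* and 3.21 with *Sox9*, and 1.92 with *Krt23*, so that 6 of 7 evaluated members reached 2. Among all 12143 genes evaluated, 12.5% did. *Epcam* reached 2 with 6 of 7 members, where 6.68% of all genes did, and with *Sox9* it fell from 3.67 to 1.49 without the 1% of spots richest in members. Few spots carried much of these values: without the richest 1% the ratio of *Krt19* fell to 4.55 with *Krt7*, 3.43 with *Epcam*, 4.48 with *Cd24a*, 6.35 with *Cldn7* and 3.05 with *Spp1*, and to 1.26 with *Sox9*. The first 5 stayed above 2 and *Sox9* did not.

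NEJ654 and NEJ677 held fewer UMIs of the members, and few pairs could be evaluated. *Krt19* and *Spp1* had a ratio of 7.14 in NEJ654 (3.47 without the richest 1% of spots) and 10.3 in NEJ677, and *Epcam* and *Spp1* 6.87 and 12.6. *Epcam* and *Cd24a* shared 24 spots in NEJ654, where 4.62 were expected, and 19 spots in NEJ677, where 2.38 were expected. With *Krt19*, 1 of 2 evaluated members reached 2 in each of these tissues, against 1.89% of all genes in NEJ654 and 3.81% in NEJ677, and *Krt23* did not, at 0.753 and 0.606. With *Epcam*, 4 of 4 members did in NEJ654 and 1 of 2 in NEJ677, against 1.71% and 4.27% of all genes. Without the richest 1% of spots, *Epcam* with *Krt23* in NEJ654 fell from 2.08 to 0.817 and no longer reached 2. When a smaller expected sum of 1 was allowed, which was chosen after the values were seen, 24 of 28 pairs in NEJ654 and 19 of 26 in NEJ677 reached 2.

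NEJ687 held little RNA of *Krt19* and *Epcam*, and part of it lay in the same spots. *Krt19* had a ratio of 22.4 with *Cldn7* and 22.3 with *Spp1*, and *Epcam* one of 20.4 with *Spp1* and 16.9 with *Cldn7*. *Krt19* and *Epcam* shared 25 spots where 2.10 were expected, out of 77 spots with *Krt19* and 90 spots with *Epcam* among 4458. *Cd24a*, which was in 64.2% of spots, stood outside this group at 1.47 with *Krt19* and 1.25 with *Epcam*. Of the 3 members evaluated, 2 reached a ratio of 2 with *Krt19* and 2 with *Epcam*, against 12.3% and 8.95% of all genes. Without the richest 1% of spots, *Spp1* kept ratios of 8.05 with *Krt19* and 6.77 with *Epcam*.

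In the 4 sections of NEJ146 every member reached a mean ratio of 2 with *Krt19* and with *Epcam*, against 12.4% and 8.67% of all genes. The ratio of *Krt19* was 20.2 ± 9.1 with *Krt7* (SD, n = 4), 10.6 ± 6.1 with *Cldn4*, 10.4 ± 3.6 with *Epcam*, 8.21 ± 1.91 with *Spp1*, 7.18 ± 4.01 with *Cldn7*, 5.38 ± 2.03 with *Krt23* and 4.00 ± 1.32 with *Sox9*. It was lowest with *Cd24a*, at 2.66 ± 0.715. Without the richest 1% of spots it fell to 8.30 with *Krt7*, to 4.37 with *Cldn4*, *Epcam* and *Spp1* alike, to 3.87 with *Cldn7*, to 2.95 with *Krt23* and to 1.17 with *Cd24a*, so that *Cd24a* no longer reached 2. *Cldn4* and *Cldn7* had a ratio of 13.4 ± 4.8 with each other. The pairs below 2 were those of *Cd24a* with *Krt23*, *Spp1* and *Sox9*, at 1.48 ± 0.23, 1.64 ± 0.18 and 1.03 ± 0.18.

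NEJ634 and NEJ723 held the most *Epcam* and claudin RNA and the lowest median ratios. In NEJ634 the ratio of *Krt19* was 2.27 with *Krt7*, 2.20 with *Spp1*, 2.20 with *Epcam*, 2.05 with *Cldn4*, 1.90 with *Cd24a*, 1.49 with *Sox9*, 1.44 with *Krt23* and 1.33 with *Cldn7*. 4 of 8 members there reached 2 with *Krt19*, against 1.36% of all genes, and 2 of 8 with *Epcam*, against 0.337%. In NEJ723 *Krt19* had ratios of 3.40 with *Spp1* (1.87 without the richest 1% of spots), 2.39 with *Krt7*, 1.92 with *Cldn4*, 1.79 with *Epcam*, 1.2 with *Cldn7*, 1.19 with *Cd24a* and 0.921 with *Krt23* and *Sox9* alike. 2 of 8 members there reached 2 with *Krt19*, against 1.32% of all genes, and 0 of 8 with *Epcam*, where 0 of 12298 genes, or 0%, did. The 1.08 of *Epcam* with *Cldn7* and 1.07 of *Cldn4* with *Cldn7* in NEJ723 say little about shared spots. *Cldn7* had a ratio with itself of 1.03 there, so that its ratios with other genes could rise little above 1. The rank correlations of these pairs over spots, with the logarithm of spot depth partialled out, were 0.215 and 0.249.

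Spots with several members were also counted. Spots with a UMI of at least 3 of *Krt19*, *Krt7*, *Epcam* and *Cldn7* numbered 21 in NEJ638 against 2.06 expected from depth and each gene's own number of spots. They numbered 22 against 0.295 in NEJ687, 7 against 0.230 in NEJ654, 6 against 0.0676 in NEJ677 and 101 to 253 against 7.25 to 52.9 in the sections of NEJ146. In NEJ634 they were 1028 against 1044 and in NEJ723 578 against 566, ratios of 0.985 and 1.02. *Cldn7* was seen in most spots of both tissues, so that this count could not exceed its expected number many times over there. Its ratios near 1 thus say little about sharing. Spots with all 4 genes did exceed the expected number in these tissues, at 523 against 356 and 78 against 53.7. The ratio of a gene with itself, which measures how unevenly its UMIs fall over spots, was 37.9 for *Krt19* in NEJ638, 26.5 ± 5.9 in NEJ146, 5.97 in NEJ723 and 3.03 in NEJ634. For *Cldn7* it was 12.5 ± 4.9 in NEJ146, 11.6 in NEJ687, 9.84 in NEJ638, 1.44 in NEJ634 and 1.03 in NEJ723. A rank correlation over spots, with the logarithm of spot depth partialled out, gave another order of the tissues: 27 of 36 pairs in NEJ634 reached 0.1, with 0.40 for *Krt19* and *Krt7*, against 17 of 29 in NEJ638, with 0.16 for that pair, 29 of 36 in NEJ146, 8 of 15 in NEJ654, 6 of 12 in NEJ677, 5 of 17 in NEJ687 and 13 of 35 in NEJ723. With *Krt19*, 0.1 was reached by 7 of 8 members in NEJ634, where 10.6% of all genes did, by 5 of 7 in NEJ638, where 1.28% did, and by 7 of 8 in NEJ146, where 4.83% did. It was reached by 1 of 8 in NEJ723, 2 of 3 in NEJ687, 1 of 2 in NEJ654 and 1 of 2 in NEJ677, against 0.195%, 0.206%, 0.128% and 0.265% of all genes. With *Epcam* it was reached by 8 of 8 members in NEJ146, 7 of 8 in NEJ634, 5 of 7 in NEJ638 and 4 of 8 in NEJ723, against 5.46%, 12.3%, 1.55% and 6.94% of all genes, and by 3 of 4 in NEJ654, 2 of 3 in NEJ687 and 1 of 2 in NEJ677, against 0.665%, 0.125% and 0.604%. The share over all pairs of genes was not computed for this measure either.

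**Figure D2:**
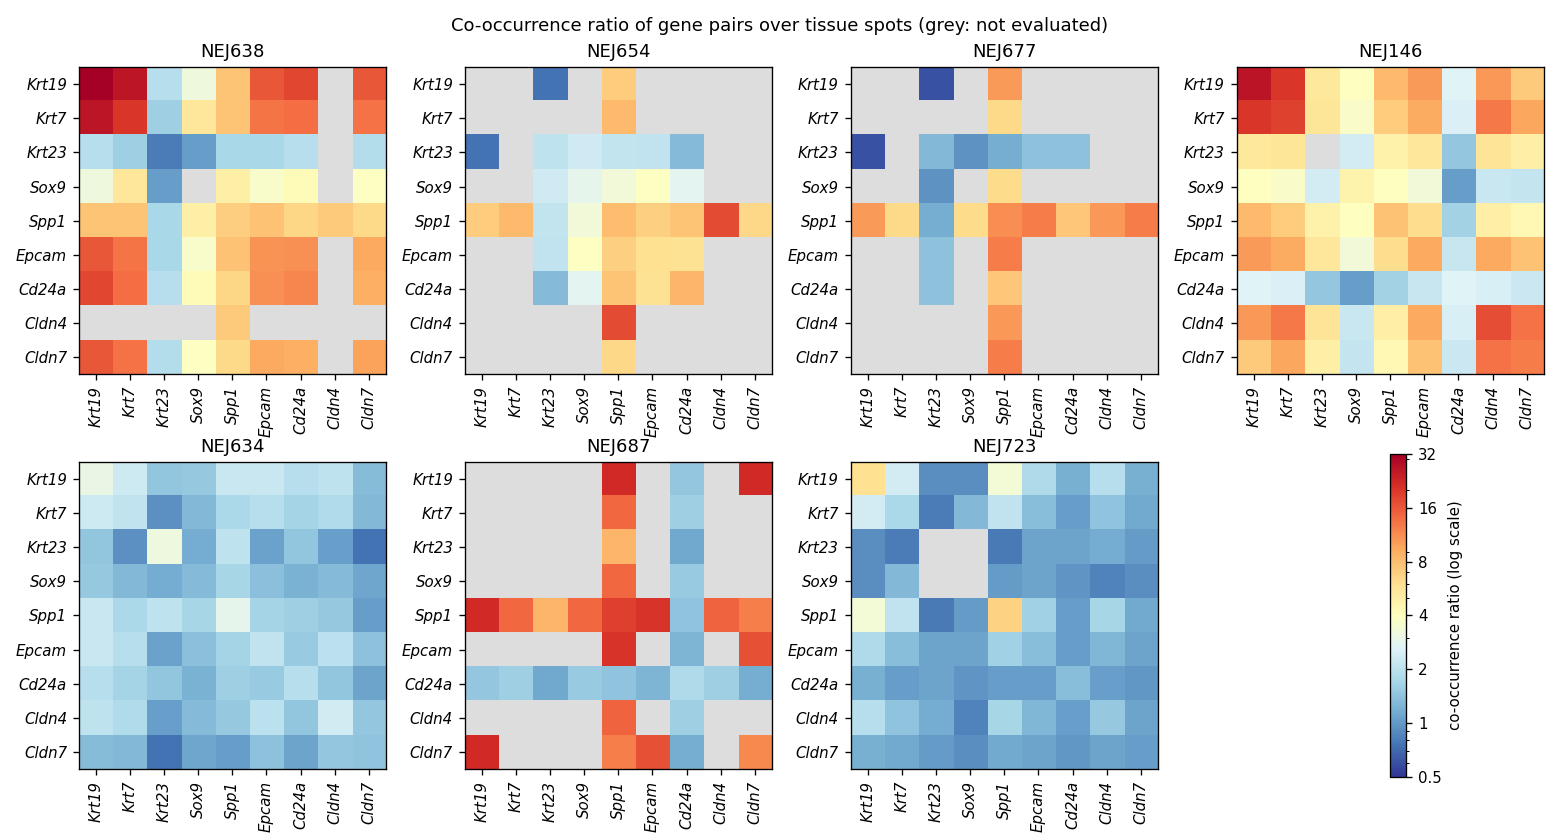
Co-occurrence ratio of each pair of members over tissue spots in the 7 tissues (colour, log scale; mean of 4 sections for NEJ146; the diagonal is each gene with itself; grey pairs had an expected sum under 5). The row with the lowest median is *Krt23* in NEJ638 (1.73) and *Cd24a* in NEJ146 (2.21), where *Sox9* is next (2.85). In NEJ687 the *Spp1* row is high (median 14.3) and the *Cd24a* row low (1.45). NEJ634 and NEJ723 have low medians, of 1.47 and 1.08. The highest cells of NEJ723 are *Spp1* (6.73 with itself), *Krt19* (5.97 with itself) and their pair (3.40).

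How far the sharing reached was read from pairs of spots 1 to 6 array steps apart, a step being the distance between neighbouring spots. In NEJ638 the ratio of *Krt19* with *Epcam* fell from 16.1 in the same spot to 4.37 at 1 step and 1.57 at 2 steps, and lay between 1.13 and 1.62 at 3 to 6 steps. In NEJ687 it was 9.88 at 1 step, 5.76 at 2 and 1.63 at 3, and in NEJ677 3.23, 2.36 and 0.810. In NEJ146 it was 10.4 ± 3.6 in the same spot, 5.59 ± 1.53, 3.86, 2.82 and 2.14 at 1 to 4 steps and 1.51 at 6 steps. NEJ146 thus lay above NEJ638 at 2 to 4 steps, while at 6 steps both were alike, at 1.51 and 1.42. The same pair fell from lower values in NEJ634, with 2.20 in the same spot, 1.51 at 1 step, 1.34 at 2 and 1.19 at 6, and in NEJ723, with 1.79, 1.46, 1.25 and 1.06. *Krt19* with itself fell from 3.03 to 1.27 and from 5.97 to 1.15 over 6 steps in these tissues. With *Cldn7* it changed less: in NEJ634 the ratio of *Krt19* with *Cldn7* was 1.33 in the same spot and 1.23 at 6 steps, and that of *Cldn7* with itself 1.44 and 1.34. *Cldn7* with itself was 1.36 at 1 step in NEJ634, so that its ratio changed little from 1 to 6 steps, and in NEJ723 *Cldn7* had ratios with itself of 1.0 at every distance from 1 step on.

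**Figure D3:**
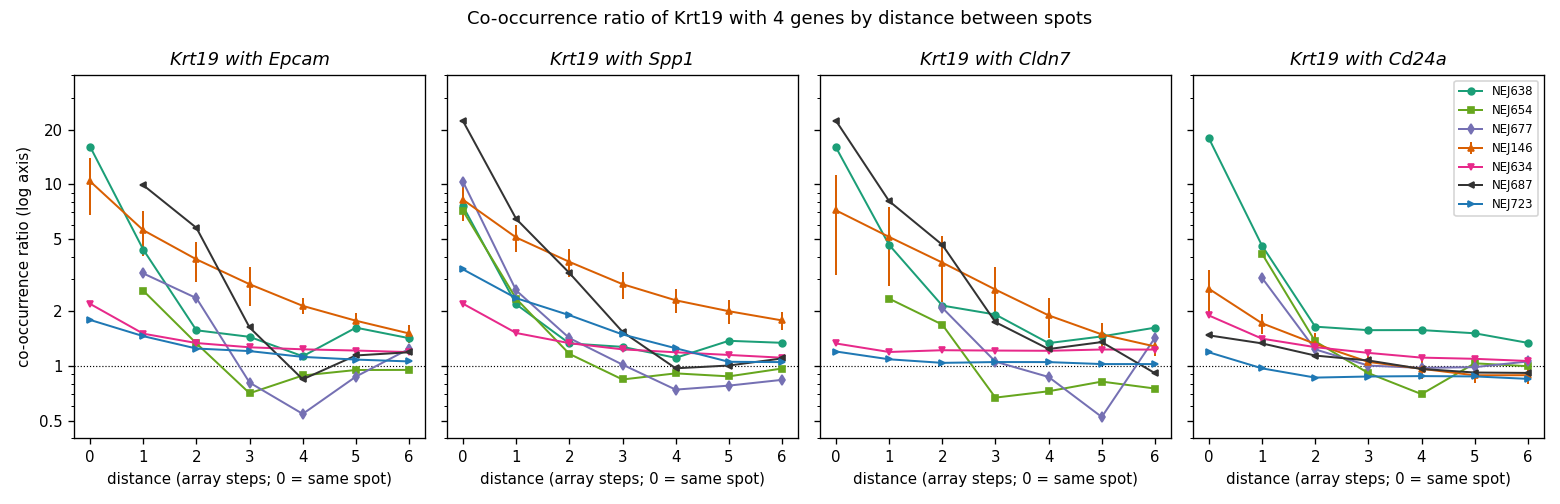
Co-occurrence ratio (log axis) of *Krt19* with *Epcam*, *Spp1*, *Cldn7* and *Cd24a* between spots 0 to 6 array steps apart in the 7 tissues, where the dotted line is a ratio of 1, bars are the SD over the 4 NEJ146 sections and points with an expected sum under 5 are left out. With *Epcam*, the lines of NEJ638, NEJ654, NEJ677 and NEJ687 drop within 1 to 3 steps, that of NEJ146 falls from 10.4 to 1.51 over 6 steps, and those of NEJ634 and NEJ723 fall from 2.20 to 1.19 and from 1.79 to 1.06.

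The maps of single spots differed between genes. In NEJ638, 45 of 3430 tissue spots held at least 1 *Krt19* UMI per 10000, 5 of them at least 5 per 10000. At least 1 per 10000 was held by 288 of 1890 spots in NEJ634, 26 of 4458 in NEJ687 and 19 of 2396 in NEJ723, so that by this cut NEJ723 lay with NEJ638 and NEJ687 and not with NEJ634. The cut depends on spot depth, since 1 UMI reaches it only in spots of at most 10000 UMIs. By level, NEJ723 stood above NEJ687 for *Krt19*, at 6.07 against 2.05 CPM. *Cldn7* reached 1 per 10000 in 1173 spots of NEJ634 and 2031 of 2396 spots of NEJ723, against 35 in NEJ638 and 35 of 4458 in NEJ687. *Cd24a* reached that share in 2035 spots of NEJ687 and 65 of NEJ638.

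**Figure D4:**
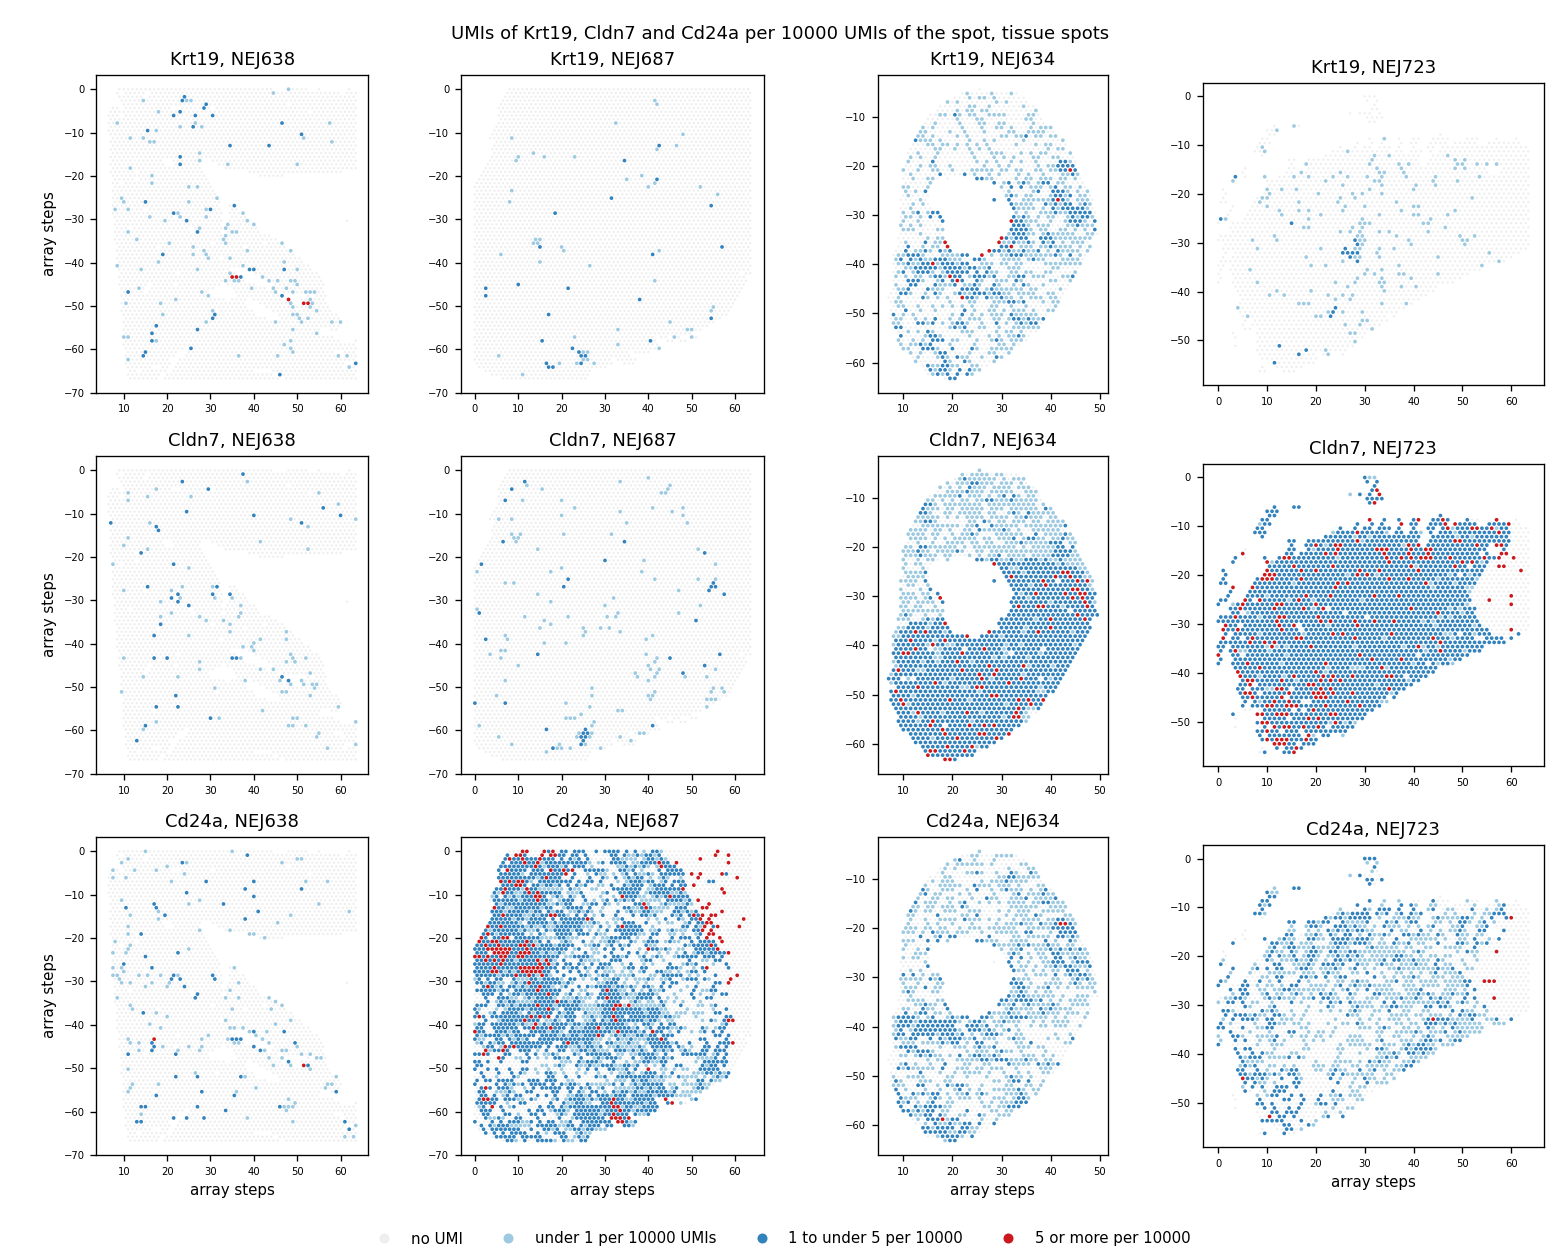
Tissue spots of NEJ638, NEJ687, NEJ634 and NEJ723 at their places on the slide (both axes in array steps), coloured by the UMIs of *Krt19*, *Cldn7* or *Cd24a* per 10000 UMIs of the spot. *Krt19* reaches 1 per 10000 in few spots of NEJ638, NEJ687 and NEJ723 and in 288 of NEJ634, *Cldn7* covers NEJ723 and the lower part of NEJ634, and *Cd24a* covers NEJ687.

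*Krt23* was the member that most often stood outside the duct group. In NEJ638, NEJ654 and NEJ677, where it was highest, its median ratio with the evaluated members was 1.73, 2.08 and 1.17, and its ratio with itself 0.812, 2.05 and 1.3, so that its UMIs were spread almost as evenly as the total in NEJ638 and NEJ677. In NEJ146, where it was 1.62 CPM, its median ratio with the other 8 members was 5.14. In NEJ687 its ratio with *Spp1* was 8.53. In NEJ677 *Krt23* had a ratio of 1.38 with 5 pericentral genes (*Glul*, *Cyp2e1*, *Cyp1a2*, *Oat* and *Slc1a2*) and 0.808 with 5 periportal genes, while *Krt19* had 0.658 and 1.45. In NEJ638 both zone ratios of *Krt23* were near 1, at 0.914 and 0.993. In NEJ634 its highest list ratio was 2.98, with 7 neutrophil genes.

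By its ratios, *Cd24a* changed company between tissues. Its ratio with *Krt19* was 17.9 in NEJ638, 2.66 ± 0.715 in NEJ146, 1.90 in NEJ634, 1.47 in NEJ687 and 1.19 in NEJ723, and the pair was evaluated in NEJ654 and NEJ677 only with the smaller expected sum, at 8.68 and 7.59. Its ratio with 8 erythroid genes (haemoglobins, *Alas2*, *Slc4a1* and others) was 2.78 in NEJ146, with 2.15 to 3.54 over sections, 2.79 in NEJ634, 1.86 in NEJ687 and 1.41 in NEJ723. That ratio was 1.21 in NEJ638, 0.924 in NEJ654 and 1.85 in NEJ677, where the partial rank correlation was 0.00 to 0.01 against 0.43 in NEJ146, 0.46 in NEJ687, 0.36 in NEJ723 and 0.12 in NEJ634. In NEJ634 *Cd24a* had higher rank correlations with *Spp1*, *Krt7*, *Epcam* and *Krt19*, at 0.405, 0.338, 0.313 and 0.307. Those with *Sox9* and *Krt23* were lower, at 0.0916 and 0.0725. With *Krt19* the rank correlation of *Cd24a* was 0.164 in NEJ638, 0.0807 in NEJ146, 0.0207 in NEJ687 and 0.0167 in NEJ723. The erythroid list summed to 9078 to 10253 CPM in NEJ146, 8784 CPM in NEJ687, 2522 CPM in NEJ723 and 942 CPM in NEJ634, with all 8 genes detected, and to 239, 96.5 and 252 CPM in NEJ638, NEJ654 and NEJ677, where *Rhd*, which encodes a red cell surface protein, was at 0 in all 3. The 4 tissues with more erythroid RNA were the 4 with more *Cd24a*, but within them the levels did not go together, since NEJ634 and NEJ146 held like levels of *Cd24a* and NEJ687 held more *Cd24a* and less erythroid RNA than NEJ146. The part of red cell precursors in the level of *Cd24a* was not tested. The neutrophil list, at 260 to 1109 CPM in the same 4 tissues and 7.74 to 18.6 CPM in the other 3, with 1 gene at 0 in NEJ654, had ratios with *Cd24a* of 1.69, 2.03, 1.37 and 1.0 in NEJ146, NEJ634, NEJ687 and NEJ723. The 5 B cell genes summed to 8.17 to 21.5 CPM in all sections and did not separate the tissues.

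**Figure D5:**
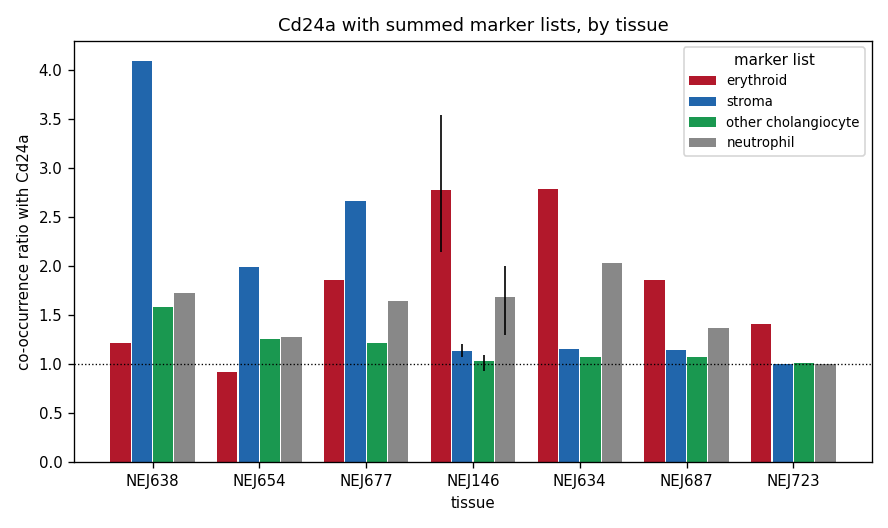
Co-occurrence ratio of *Cd24a* with the summed UMIs of 4 marker lists in the 7 tissues (bars start at 0, the dotted line is a ratio of 1, and lines on the NEJ146 bars span its 4 sections). The stroma list is the highest in NEJ638, NEJ654 and NEJ677 (4.10, 2.0 and 2.67) and the erythroid list in NEJ146, NEJ634, NEJ687 and NEJ723 (2.78, 2.79, 1.86 and 1.41).

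*Spp1* is made by duct cells and by some macrophages. Its ratio with the sum of 9 macrophage genes (*Cd68*, *Adgre1*, *Clec4f* and others) lay between 0.733 and 1.15 in all 7 tissues, and its ratio with *Krt19* between 2.20 and 22.3. A summed list and a single gene are not like for like, and the part of macrophages in *Spp1* was not tested. In NEJ638, NEJ654 and NEJ677 *Spp1* was low where pericentral genes were high, with ratios of 0.476, 0.537 and 0.542, and its ratio with 7 stroma genes was 2.30, 1.68 and 2.98.

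The spots of *Krt19* also held RNA of stroma genes in NEJ638, NEJ687, NEJ146, NEJ654 and NEJ677. Of the 7 stroma genes (collagens, *Dcn*, *Lum*, *Mgp* and *Eln*), 7 reached a ratio of 2 with *Krt19* in NEJ638, 7 in NEJ687, 6 in NEJ146, 5 in NEJ654 and 5 in NEJ677, with medians of 7.82, 3.60, 2.92, 2.04 and 5.30, and 0 of 7 did in NEJ634 and NEJ723, with medians of 1.29 and 1.45. *Mgp*, an inhibitor of matrix calcification, had 14.9 in NEJ687, 14.2 in NEJ677 and 1.29 in NEJ634. The median over all genes evaluated was 0.873 to 1.26 in the 7 tissues. Among all genes, 12.5% reached 2 in NEJ638, 12.3% in NEJ687, 12.4% in NEJ146, 1.89% in NEJ654, 3.81% in NEJ677, 1.36% in NEJ634 and 1.32% in NEJ723, and these shares hold for the other lists counted with *Krt19* too. The part of stroma in the sharing was not tested.

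Other genes of duct cells followed *Krt19* in part. Of 15 further cholangiocyte genes, 10 of 11 evaluated reached 2 in NEJ146, 8 of 8 in NEJ687, 6 of 12 in NEJ638, 3 of 8 in NEJ654, 2 of 6 in NEJ677, 2 of 13 in NEJ634 and 1 of 9 in NEJ723. *Tspan8*, a tetraspanin of duct epithelium, had the highest ratio of the list in NEJ638, at 51.6, in NEJ687, at 7.25, and in NEJ723, at 3.46, and the mucin *Muc1* in NEJ146, at 13.8, and NEJ634, at 2.89. Of 10 epithelial junction genes, 6 reached 2 in NEJ146, 5 of 9 in NEJ687, 1 in NEJ638 and none in NEJ634, NEJ723, NEJ654 and NEJ677. *Cldn6*, a claudin of embryonic epithelium, was 62.2 CPM in NEJ723, 35.1 CPM in NEJ634, 7.21 CPM in NEJ146 and 0.977 CPM in NEJ638. Its ratio of 2.86 with *Krt19* in NEJ638 rests on few counts, near the minimum of 50 UMIs for a gene to be evaluated.

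Genes of the pathways that act on duct fate were counted by the same ratio with *Krt19*. Of 9 Notch genes, 4 reached 2 in NEJ146, 5 of 7 in NEJ687, 4 of 8 in NEJ638, 1 of 4 in NEJ677 and none in NEJ634, NEJ723 and NEJ654, where 1.36%, 1.32% and 1.89% of all genes did. The ligand *Jag1* had the highest ratio of the list in NEJ687, at 5.67, in NEJ146, at 4.36, and in NEJ634, NEJ654 and NEJ723, at 1.70, 1.33 and 1.44. The receptor *Notch2* was lowest in NEJ146, at 1.10. Of 7 targets of the YAP coactivator, 6 reached 2 in NEJ146, 5 of 6 in NEJ687, 3 of 6 in NEJ638, 3 of 7 in NEJ723, 2 of 6 in NEJ654, 1 of 5 in NEJ677 and 1 of 7 in NEJ634. *Ankrd1* had 17.1 in NEJ146, 3.25 in NEJ723 and 2.78 in NEJ634, and *Ctgf*, the connective tissue growth factor, 3.54 in NEJ638. The summed hepatoblast genes, of which *H19* and *Afp* made up 6062 and 2023 of 8271 CPM in NEJ146, had list ratios with *Krt19* of 0.604 in NEJ146, 0.691 in NEJ634, 0.856 in NEJ687 and 1.15 in NEJ723. In NEJ638, NEJ654 and NEJ677, where little hepatoblast RNA was counted, the list ratios were 1.62, 1.46 and 1.98. Single genes differed from the sum: *Dlk1* had 1.16 in NEJ146 and 1.17 in NEJ634, and *Gpc3* 1.91 and 1.24, against 0.575 and 0.499 for *H19*. *Prom1*, a progenitor surface protein, had the highest ratio of that list in NEJ146, at 6.19, NEJ687, at 2.93, NEJ638, at 3.17, NEJ723, at 2.30, and NEJ634, at 1.83, and the imprinted *H19* in NEJ654, at 3.90. Proliferation genes had a list ratio with *Krt19* of 0.682 in NEJ146, 0.881 in NEJ634 and 1.01 in NEJ723.

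The genes that shared spots with *Krt19* most closely, among non-members of at least 200 UMIs, differed from tissue to tissue. In NEJ146 they were *Dmbt1*, *Ccl20*, *Tff2*, *Wfdc18* and *Bst1*, with ratios of 67.5 ± 17.2 to 26.5 ± 9.0. *Dmbt1* and *Tff2* encode secreted proteins of mucosal surfaces, and *Dmbt1*, *Wfdc18* and *Tff2* also led for *Epcam*, at 37.0 ± 11.1, 20.1 ± 9.3 and 16.7 ± 8.5. In NEJ638 they were *S100a6*, *Fxyd3*, *H2-Eb1*, *Mfap4* and *H2-Aa* at 18.6 to 13.7, a set with MHC class II and microfibril genes. In NEJ654 and NEJ677 *Mgp*, *Gsn*, *S100a6* and *Ccl21a*, a chemokine of lymphatic vessels, were in both sets of 5, joined by *Dpt* at 5.28 and *Eln* at 11, and *Ccl21a*, *Gsn* and *Mgp* led for *Epcam* in both. In NEJ687 they were *Mgp*, *Pamr1*, *Ddr1*, *Cryab* and *Gas6* at 14.9 to 9.13, and *Mgp*, *Ddr1* and *Pamr1* led for *Epcam*. The sets are not like for like, since the 200 UMIs were summed over the 4 sections of NEJ146. Genes of lower level could thus enter there, such as *Bst1* at 1.12 CPM, against 4.08 CPM for *Fxyd3* in NEJ638. *Tspan8*, at 51.6 with *Krt19* in NEJ638, held too few UMIs to be in its set.

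In NEJ634 and NEJ723 these leading ratios were smaller. NEJ634 had *Ptger3*, *Psca*, *St8sia3* and *Muc1* at 3.20 to 2.89 for *Krt19*, and *Ptger3*, *Cdh17* and *St8sia3* at 2.33 to 2.21 for *Epcam*. *Psca* and *Cdh17* are surface proteins of digestive tract epithelium. NEJ723 had *Igkc*, *Anxa1*, *Ccl2* and *Cd44* at 4.35 to 3.25 for *Krt19*, and *Vcan* and *Ccl2* at 1.47 and 1.45 for *Epcam*.

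Across the 7 tissues, the genes with the most similar levels were found by Pearson's r of log2(CPM + 1) among genes of at least 10 CPM in their highest tissue, as a description over 7 points. For *Cldn7* they were *Cldn6* and *St14*, the protease that acts on epithelial junctions, both with r of 1.0, and for *Cldn4* *Rims4* and *Cldn7*, both with 0.99. *Epcam* had *Cyp2s1* and *Mapk3*, *Krt7* *Dnal4* and *Cyp2s1*, and *Krt19* the matrix genes *Thbs2* and *Mfap2*, all with r of 0.99. *Krt23* had *Gys2*, the liver glycogen synthase, and *Prdx1*, both with 0.99, *Cd24a* *Ptdss2* and *Man1a2*, both with 1.0, *Spp1* *Ap2s1*, at 0.96, and *Sox9* *Shisa5* and *Commd8*, at 0.95 and 0.94. With many genes searched and 7 points, high values of r arise readily, and they were given no test.

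RNA was also counted outside the tissue calls, where the 6 sections with calls held 6.81 to 43.0% of their UMIs. In NEJ634 the ratio of *Krt19* with *Krt7* was 2.79 in those spots against 2.27 over tissue, and in NEJ638 10.4 against 26.1. In NEJ723 that pair had 1.48 against 2.39. For this pair, NEJ638 stayed above NEJ634 and NEJ723 outside the calls, though each value differed from that over tissue. Other pairs changed too, such as *Krt19* with *Cd24a* in NEJ687, at 0.513 against 1.47. The part of RNA that moved between spots was not tested.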

How the data were processed

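Visium libraries of 10 sections from 7 tissues were analysed. The files hold UMI counts of every gene in every spot of the array, not normalized, as deposited by the authors. The labels name Cell Ranger 6.0 for NEJ146 and Space Ranger 1.3 with mm10 for the others, and the build of NEJ146 is not given in the sources used here. NEJ146 had no position file, so each barcode was given the place it has in the other 6 sections, which share one layout, and spots of at least 8000 UMIs were used. CPM is a gene's UMIs per 1e+06 UMIs of tissue spots. Co-occurrence ratios, distance ratios and list ratios were computed with Python 3.11.15, NumPy 2.4.6, SciPy 1.17.1 and pandas 2.3.3, and the code was tested on simulated data. A PCR duplicate is counted once through its UMI, but intervals cover counting error only. Members are the 9 genes given. Other genes are named by rule: the 5 highest ratios with *Krt19* and 3 with *Epcam* (at least 200 UMIs), the 2 most alike over tissues, and the highest and lowest of a list. Some genes that these rules name are not reported here. The members and lists were chosen with earlier results of these data known.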

Additional observations from a re-analysis of the deposited data

Results flagged for a closer look

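Signal of the members appeared in spots outside the tissue calls, which no comparison of levels used. Summed over the 9 members it was 668 CPM in NEJ634 (762 CPM over tissue), 246 CPM in NEJ687 (230 CPM), 480 CPM in NEJ723 (553 CPM), 160.0 CPM in NEJ638 (153 CPM), 60.6 CPM in NEJ654 (81.3 CPM) and 87.2 CPM in NEJ677 (89.4 CPM). The spots concerned numbered 534 to 3102 per section and had median depths of 6659.5 to 11895 UMIs. The part of RNA spread beyond the tissue edge and of tissue missed by the calls was not tested. Among 24 values compared over the 4 sections of NEJ146, 0 had a section far from the rest.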

How the results depend on the processing

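Added up over the 7 tissues, 93 pairs reached a ratio of 2, with 24 members counted for *Krt19* and 23 for *Epcam*. In these sums, and in those that follow, a pair or member counts once for each tissue in which it reached the threshold. At a ratio of 2 with *Krt19* or *Epcam*, the shares of all genes ran from 0 to 12.5% by tissue, so that the sums have no single share beside them. Without the richest 1% of spots the pairs were 3 in NEJ634, 0 in NEJ723 and 7 in NEJ654, and *Epcam* with *Krt23* in NEJ654 turned from 2.08 to 0.817. When spots with both genes were set over the number expected, 44 pairs reached 2, with 12 members for *Krt19* and 14 for *Epcam*, and 21 pairs in NEJ146, 0 in NEJ634, 3 in NEJ687, 0 in NEJ723, 4 in NEJ654 and 1 in NEJ677. In NEJ634 and NEJ723 that measure could not reach 2 for pairs of genes seen in most spots. A partial rank correlation of 0.1 was reached by 27 pairs in NEJ634, 5 in NEJ687, 13 in NEJ723 and 8 in NEJ654. A threshold of 1.5 gave 16 pairs in NEJ634 and 7 in NEJ723, and one of 3 gave 0 and 1. A minimum expected sum of 20 gave 14 members for *Epcam*, 10 pairs in NEJ638 and 7 in NEJ654, and one of 1, chosen after seeing the data, gave 36, with 20 pairs in NEJ687, 24 in NEJ654 and 19 in NEJ677. The cause of these changes was not tested, except that a smaller or larger minimum evaluates more or fewer pairs. Of the planned values, 153 counts, 557 levels and 756 ratios moved by less than their error or 1.5 times, while 23 counts, 10 levels and 34 ratios moved further and 1 ratio that had reached 2 turned below 1. *Epcam* with *Krt23* in NEJ677, which had not reached 2, also moved from 1.39 to 0.865. All 34 ratios fell without the richest 1% of spots, a fall built in because these spots were picked by the members' own summed share. Of the 10 levels, 9 rose when mitochondrial and haemoglobin UMIs were left out of the totals, and *Krt19* in NEJ146 became 7.95 CPM with tissue taken by mitochondrial share. No paired analysis was possible because each tissue is a group of its own and the numbers of the NEJ146 sections pair with no other tissue. The few UMIs of the members limit the pairs of NEJ654, NEJ677 and NEJ687, where 12 to 17 of 36 could be evaluated.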
